A study of Homo sapiens with 18 samples.

Results

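The effect of epirubicin at low oxygen was measured in MDA-MB-231 cells, a human breast cancer line of mesenchymal, hormone receptor-negative type. It was read from the 3 arrays titled H epi and the 3 arrays titled H, which are 6 of the 18 arrays of the series. H epi cells were kept for 16 hours in serum-free medium at 1% oxygen with 10 µM epirubicin, and H cells were kept in the same medium, for the same time and at the same oxygen level, without drug. The cells of both conditions, like all others in the series, had been grown in medium with serum, and the treatment itself was without it. Comparisons were also made with H tax cells (1% oxygen, 50 µM paclitaxel), N epi cells (normal atmosphere, 10 µM epirubicin) and N cells (normal atmosphere, no drug), with 3 arrays each by title. RNA was taken up in Trizol and read on Affymetrix HG-U133 Plus 2.0 arrays. Each of their probe sets gives 1 signal on the log2 scale, so that a difference of 1 is a 2-fold change.

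Epirubicin is an anthracycline. It intercalates into DNA and traps topoisomerase II on broken strands, and anthracyclines are known to slow RNA synthesis. At low oxygen the prolyl hydroxylases no longer mark the HIF alpha subunits for destruction. HIF then pairs with ARNT, recruits the coactivators CREBBP and EP300, and raises genes of glucose use, angiogenesis, pH control and mitochondrial turnover. In H epi cells the drug was present for all of the hours at low oxygen.

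The grouping rests on the array titles, because for the arrays numbered 3 the source name gives another drug than the title. Array 3 titled H epi correlated at 0.997 with H epi arrays 1 and 2 and at 0.9386 with H tax arrays 1 and 2. Array 3 titled H correlated at 0.9984 with H arrays 1 and 2 and at 0.9463 with H epi arrays 1 and 2. Values fitted by title are given first, and those from arrays 1 and 2 alone beside them. The study describes the arrays of a condition as biological replicates from separate experiments, while the labels only number them, and p-values measure the spread between these arrays. On the H epi arrays 41.4% to 41.6% of the probe sets were over the presence threshold, a log2 signal of 3.14, and on the H arrays 42.1% to 42.4%. The ACTB control probe sets differed between the 3' and 5' ends by −0.31, −0.28 and −0.18 log2 units on the H epi arrays and by 0.20, 0.07 and 0.31 on the H arrays, a measure of RNA integrity whose part in the results was not tested. The GAPDH pair differed by 0.42 to 0.46 on the H epi arrays and by 0.36 to 0.41 on the H arrays. Of 7 mesenchymal markers, 0 passed the limma test, and 0 had an unadjusted p under 0.05. Once arrays were centred on their present probe sets 7 were higher, where 55.1% of all genes were higher. Vimentin averaged 15.63 ± 0.01 in H epi cells and 15.69 ± 0.01 in H cells (SD, n = 3 each). Of 8 luminal markers, ESR1, PGR, FOXA1 and CDH1 were under the threshold and TFF1 rose to 6.72 in H epi cells, against 3.83 in H cells, while XBP1, KRT19 and GATA3 fell, KRT19 to 10.44 ± 0.34 in H epi cells, against 14.05 ± 0.15 in H cells, and GATA3 to 5.83 ± 0.87 in H epi cells, against 7.95 ± 0.15 in H cells. Of 8 hepatocyte markers 4 were tested and ALB was under the threshold. AFP was higher, at 3.59 in H epi cells and 2.27 in H cells (1.33), and the summed signal of the 4 was 356 to 383 on the H epi arrays and 341 to 564 on the H arrays. Of 8 fibroblast and endothelial markers 2 were tested, with COL1A1 higher by 0.58 and PECAM1 lower (−2.88), a summed signal of 188 to 244 on the H epi arrays and 257 to 308 on the H arrays, and CDH5 and VWF under the threshold. Of 7 keratinocyte markers 2 were tested, of which FLG was lower (−0.77) and KRT10 did not pass (−0.38), with a summed signal of 4170 to 5862 on the H epi arrays and 6400 to 6769 on the H arrays. Of 6 leukocyte markers CD79A was tested (−0.01, adjusted p = 0.936), with 12 to 14 on the H epi arrays and 11 to 15 on the H arrays, and PTPRC, CD3E and CD14 were under the threshold. The part of these markers in the results was not tested.

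Epirubicin at 1% oxygen changed most of the measured transcriptome, and the falls were far deeper than the rises. Of 23881 probe sets tested with limma, 16502 passed at an adjusted p under 0.05, which is 69.1%. Among them 8341 were higher (34.9%) and 8161 lower (34.2%) in H epi cells. With arrays 1 and 2 only, 13562 of 23483 passed (57.8%). With the arrays numbered 3 grouped by source name instead, 0 of 23636 passed limma's test, and 2203 had an unadjusted p under 0.05. Named by the probe set with the highest mean of each gene, 11157 genes were tested, of which 3746 were higher (33.6%) and 4134 lower (37.1%). At 2-fold or more, 1384 genes were higher (12.4%) and 2943 lower (26.4%), at 4-fold or more 159 were higher and 1639 lower, and at 16-fold or more 1 was higher and 416 were lower, the last being 3.73% of genes. Of the 7880 genes called, 6376 were called in the same direction with arrays 1 and 2 only, and 0 of them in the opposite one. With these arrays 3647 of 11040 genes were lower (33.0%) and 2853 higher (25.8%).

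The near-even split depends on the scale on which the arrays are set. Quantile normalization raised the median change of all probe sets by 0.21 and gave 11102 probe sets higher and 7167 lower. Centring each array on its present probe sets raised the median by 0.49 and gave 13631 higher and 6069 lower, and centring on all probe sets moved it by −0.08 and gave 7428 higher and 8713 lower. Among genes, 42.0% were higher and 34.2% lower under quantile normalization, and 55.1% were higher and 28.2% lower under centring on present probe sets. Counts of list members under these scalings are to be read against these shares. Changes smaller than these shifts are therefore read as relative to the deposited scale. The arrays are set to a common scale and read RNA of whole cultures, so fewer cells and less RNA per cell cannot be told apart. Among the genes called lower, 272 were under the threshold on all 3 H epi arrays, and among those called higher, 121 were under it on all 3 H arrays, so these entered the test through the condition in which they were high. For 383 of 4099 called genes with several probe sets, another probe set was called in the opposite direction.

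**Figure D1:**
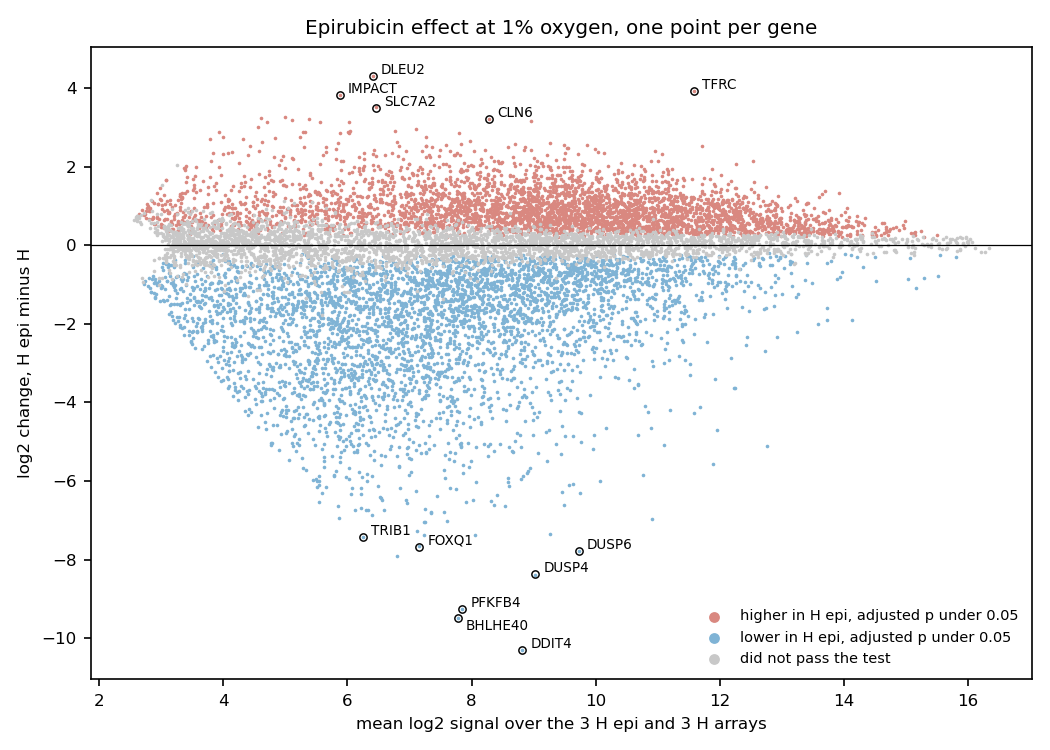
Log2 change of H epi over H (vertical axis) against the mean log2 signal of the 6 arrays (horizontal axis), with a point for each of 11157 genes, red where higher and blue where lower in H epi at an adjusted p under 0.05, and grey where the test was not passed. The falls reach −10.31 while the rises end at 4.32.

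The deepest falls included DDIT4, BHLHE40, PFKFB4 and DUSP4. The largest falls were taken as the 12 largest among genes whose arrays did not overlap and which moved the same way with arrays 1 and 2 only, and the rises likewise. DDIT4, a stress-raised inhibitor of the mTORC1 kinase, had log2 signals of 3.80, 3.30 and 3.86 in H epi cells, against 14.09, 13.84 and 13.97 in H cells. All 3 H epi arrays lay near the presence threshold and all 3 H arrays high in the range, and the change was −10.31 (SE 0.17, adjusted p = 9.78e-07), or −10.42 with arrays 1 and 2 only. BHLHE40, a transcriptional repressor that HIF raises, had 3.29, 2.98 and 2.83 in H epi cells, against 12.52, 12.43 and 12.59 in H cells. PFKFB4, an isoenzyme that sets the level of the glycolytic activator fructose 2,6-bisphosphate, had 3.38, 3.09 and 3.21 in H epi cells, against 12.56, 12.44 and 12.44 in H cells. BHLHE40 was over the threshold on only 1 of the H epi arrays and PFKFB4 on 2, and their fitted changes of −9.48 and −9.25 rest on H epi values at the floor of the signal.

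Of the 12 largest falls, 4 were feedback inhibitors of ERK signaling. They were DUSP4 and DUSP6, phosphatases that switch ERK off, and SPRY1 and SPRY4, Sprouty proteins that restrain receptor tyrosine kinases. DUSP4 had 5.10, 4.49 and 4.89 in H epi cells, against 13.19, 13.17 and 13.29 in H cells, a change of −8.38. DUSP6 had 5.75, 6.20 and 5.55 in H epi cells, against 13.66, 13.47 and 13.73 in H cells. DUSP6 changed by −7.79, SPRY1 by −7.91 and SPRY4 by −7.28. TRIB1, a pseudokinase that brings substrates to a ubiquitin ligase, was under the threshold on all H epi arrays, with 3.12, 2.23 and 2.23, against 10.03, 9.80 and 10.04 on the H arrays, and was at least 113-fold lower. The others were FOXQ1, a forkhead transcription factor (−7.67), HILPDA, a hypoxia-raised lipid droplet protein (−7.38), ANKRD37, a HIF target (−7.37), and IRF2BPL, a transcriptional regulator (−7.35). Adjusted p ran up to 5.07e-05 for SPRY4, whose H epi arrays spread over 3.51, 4.45 and 2.46. With arrays 1 and 2 only, the changes of the 12 genes lay between −10.42 and −6.62.

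Rises were smaller and led by a mixed set of genes. DLEU2, a long noncoding RNA that hosts a microRNA pair, had 8.48, 8.68 and 8.53 in H epi cells, against 4.41, 4.84 and 3.48 in H cells, a change of 4.32 (SE 0.34, adjusted p = 8.83e-05). Its other probe sets went the other way, with 2 called lower and changes of −2.25 and −1.51, so the direction holds for that probe set and not for the gene. TFRC, the transferrin receptor that brings iron into the cell, had 13.53, 13.60 and 13.51 in H epi cells, against 9.10, 9.52 and 10.23 in H cells. The H epi arrays agreed closely, the H arrays spread over more than 1 log2 unit, and the change was 3.93 (SE 0.28, adjusted p = 6.05e-05), with 0.79 to 4.84 over its other probe sets. IMPACT, a regulator of the kinase GCN2, had 7.93, 7.57 and 7.86 in H epi cells, against 3.79, 3.94 and 4.15 in H cells, and CLN6, a protein of the endoplasmic reticulum, had 9.84, 9.98 and 9.86, against 6.64, 6.65 and 6.73 in H cells. IMPACT changed by 3.83 and CLN6 by 3.22. The remaining 8 rose by 3.14 to 3.51, among them SLC7A2, a transporter of cationic amino acids (3.51), LIAS, which makes lipoic acid for mitochondrial enzymes (3.24), RBM24, an RNA-binding protein (3.18), and FHIT, a diadenosine hydrolase lost in many tumors (3.15). For LIAS and PCOTH the H arrays straddled the presence threshold. All 24 of these genes kept their direction under quantile normalization and under centring on present probe sets. Changes of this size could hardly turn, since those scalings moved the median change by 0.21 and 0.49. With arrays 1 and 2 only the rises lay between 2.87 and 4.25.

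**Figure D2:**
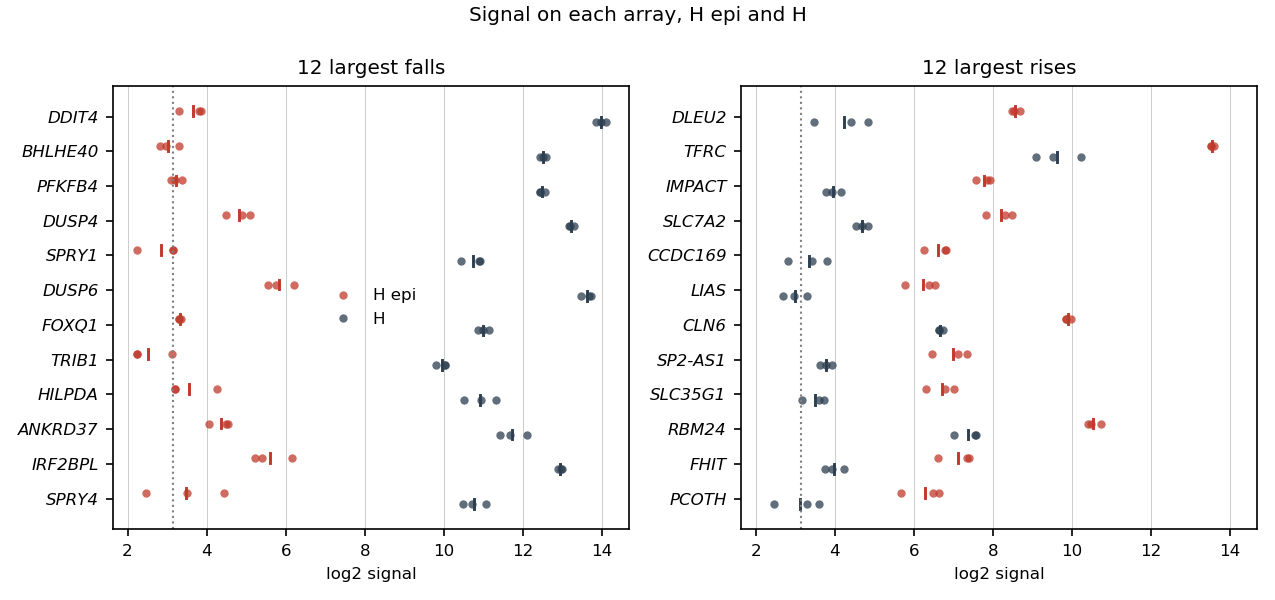
Log2 signal on each array for the 12 largest falls (left) and the 12 largest rises (right), with a point per array, H epi in red and H in dark blue, a tick at each mean and a dotted line at the presence threshold of 3.14. The genes were chosen so that the H epi and H points do not overlap.

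Every measured gene of the hypoxia response list was lower with epirubicin at 1% oxygen. The list holds 31 genes known to be raised by low oxygen, of which CA9 and STC2 were not tested, and 29 of the 29 tested were lower, against 37.1% of all genes. It was written with earlier results of these data known. Several members, such as TMEM45A, NDRG1 and ANGPTL4, are also among the genes that the study listed from arrays of this series. The list is therefore not independent evidence of a direction. Of the 29, 27 fell by 2-fold or more, against 26.4% of all genes, and 11 by 16-fold or more. Of the 29, 4 were under the threshold on all H epi arrays, so they entered the test through H and could only be lower. The median change was −3.44, with those 4 at their bounds too, against 0.00 over all genes, and −3.38 under quantile normalization and −2.95 under centring on present probe sets. With arrays 1 and 2 only, 29 of 29 were again lower, against 33.0% of genes. HIF is known to bind DNA at the core letters ACGTG or GCGTG. HILPDA fell slightly more than ANKRD37 (−7.38 and −7.37), but its promoter is not shown. The promoters of 4 large falls of the hypoxia and glycolysis lists are shown to let these letters be seen. Each is the 250 bases before the RefSeq start of the gene in GRCh38.p14, read 5′ to 3′ on the gene's strand, with both cores in capitals wherever they occur on either strand. DDIT4 lies on the plus strand at chr10:72273674-72273923, BHLHE40 on the plus strand at chr3:4979187-4979436, PFKFB4 on the minus strand at chr3:48556804-48557053 and ANKRD37 on the plus strand at chr4:185396591-185396840.
DDIT4: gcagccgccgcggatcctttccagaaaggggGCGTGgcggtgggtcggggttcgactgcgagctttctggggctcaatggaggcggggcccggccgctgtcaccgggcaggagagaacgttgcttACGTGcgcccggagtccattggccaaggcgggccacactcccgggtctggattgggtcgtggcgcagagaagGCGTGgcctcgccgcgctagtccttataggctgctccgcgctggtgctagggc
BHLHE40: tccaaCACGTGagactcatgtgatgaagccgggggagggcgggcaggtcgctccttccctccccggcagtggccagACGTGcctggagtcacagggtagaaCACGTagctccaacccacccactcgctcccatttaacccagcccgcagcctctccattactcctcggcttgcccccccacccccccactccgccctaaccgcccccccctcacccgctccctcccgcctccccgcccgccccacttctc
PFKFB4: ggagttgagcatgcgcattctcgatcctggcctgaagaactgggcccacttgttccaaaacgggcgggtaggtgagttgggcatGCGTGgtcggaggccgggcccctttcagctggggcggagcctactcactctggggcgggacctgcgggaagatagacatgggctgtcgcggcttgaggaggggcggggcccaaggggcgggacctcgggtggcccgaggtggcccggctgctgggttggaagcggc
ANKRD37: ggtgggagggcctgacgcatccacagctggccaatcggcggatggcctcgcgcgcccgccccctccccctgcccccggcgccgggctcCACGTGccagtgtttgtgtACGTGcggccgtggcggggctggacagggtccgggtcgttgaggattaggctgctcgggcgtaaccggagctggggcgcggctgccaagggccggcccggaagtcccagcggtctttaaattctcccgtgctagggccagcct
DDIT4 held 1 ACGTG and 2 GCGTG, BHLHE40 held 4 ACGTG, PFKFB4 held 1 GCGTG and ANKRD37 held 3 ACGTG, counted on both strands, so that the palindrome CACGTG counts on each. ACGTG was found in 13 of the 22 hypoxia response promoters in the RefSeq table (59.1%), in 23.9% of 9205 tested genes and in 18.7% of all 27305 genes with a promoter entry. GCGTG was found in 10 of the 22 (45.5%), in 46.2% of tested genes and in 31.9% of all. Either core was found in 16 of the 22 (72.7%), in 58.2% of tested genes and in 43.1% of all. A match is a description of the letters and not of a bound site.

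Among secreted factors, VEGFA, the main angiogenic growth factor, had 7.71, 7.85 and 7.97 in H epi cells, against 13.90, 13.66 and 13.52 in H cells, a change of −5.85 (SE 0.13, adjusted p = 1.44e-06). ADM, the vasodilator adrenomedullin, had 5.92, 6.32 and 6.30 in H epi cells, against 13.16, 12.87 and 12.37 in H cells, and ANGPTL4, a secreted inhibitor of lipoprotein lipase, was at 4.56 on each H epi array, against 10.94, 10.52 and 10.78 on the H arrays. None of the 3 overlapped between the groups, which was common, since 7816 of 11157 genes passed, did not overlap and kept direction with arrays 1 and 2 only. ADM and ANGPTL4 changed by −6.62 and −6.19. Whether the repeated 4.56 is the floor of the ANGPTL4 probe set was not tested. NDRG1, a stress-raised differentiation gene, fell to 10.21 ± 0.12 in H epi cells, against 15.32 ± 0.20 in H cells. MIR210HG, the transcript that hosts miR-210, was at 2.28 on all H epi arrays, against 9.32, 8.88 and 8.21 on the H arrays, and was at least 50.6-fold lower. EGLN3, RORA and PPFIA4 were likewise under the threshold on all H epi arrays, so that only bounds of at least 13.7-fold, 5.43-fold and 3.05-fold lower can be given.

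Smaller changes were found in the genes of matrix, mitochondria and glucose uptake. P4HA1 and PLOD2, which hydroxylate collagen, changed by −2.73 and −1.34, and LOX, which crosslinks it, by −2.20, with 8.98, 8.90 and 8.99 in H epi cells, against 11.41, 11.01 and 11.04 in H cells. BNIP3 and BNIP3L, receptors for the removal of mitochondria, changed by −1.89 and −1.32. CA12, a membrane carbonic anhydrase, fell to 8.25 ± 0.05 in H epi cells, against 10.52 ± 0.08 in H cells. The smallest changes of the list were those of SLC2A1, the basal glucose transporter (10.90, 10.94 and 10.99 in H epi cells, against 12.01, 11.89 and 11.61 in H cells), and of ERO1A, an oxidase of the endoplasmic reticulum, both −0.89. They were −0.40 for both under centring on present probe sets.

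Most of the tested oxygen sensors and coactivators of HIF fell, while HIF1A itself rose. Of 11 genes of HIF subunits and regulators tested, 7 were lower and 1 higher, against 37.1% and 33.6% of all genes, with a median of −3.57. Among the 7 was EGLN3, which was under the threshold on all H epi arrays. HIF1A had 13.20, 13.32 and 13.26 in H epi cells, against 11.74, 11.88 and 12.32 in H cells, a change of 1.28 (SE 0.16, adjusted p = 0.000636) and 1.45 with arrays 1 and 2 only. All H epi arrays lay above all H arrays, and most genes tested likewise had groups that did not overlap. In normal atmosphere HIF1A changed by −0.62, with means of 13.27 in N epi cells and 13.89 in N cells, and the effects differed by 1.90 (adjusted p = 0.000518). CREBBP and EP300, the histone acetyltransferases that HIF recruits, fell, CREBBP to 4.36 ± 0.21 in H epi cells, against 8.84 ± 0.08 in H cells, and EP300 to 3.20 ± 0.29, against 6.77 ± 0.20 in H cells. CITED2, which competes with HIF for them, had 5.93, 6.06 and 5.30 in H epi cells, against 11.03, 10.95 and 10.50 in H cells (−5.07). The asparaginyl hydroxylase HIF1AN and the prolyl hydroxylase EGLN1 changed by −4.29 and −3.63, though the other probe sets of HIF1AN gave −0.46 to −0.33. EPAS1, ARNT and VHL did not pass the test, with changes of 0.27 (adjusted p = 0.197), 0.53 (0.0662) and −0.75 (0.0717). The other probe sets of ARNT gave −2.27 to 0.45.

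Glycolytic enzymes differed widely among themselves. Of 19 tested, 10 were lower and 1 higher, against 37.1% and 33.6% of all genes, with a median of −0.32. Under quantile normalization 16 were lower and 1 higher (median −0.40), against 34.2% and 42.0% of all genes. Under centring on present probe sets 8 were lower and 6 higher (median 0.17), against 28.2% and 55.1%. The fructose 2,6-bisphosphate enzymes PFKFB4 and PFKFB3 changed by −9.25 and −3.60, aldolase C by −5.79 and hexokinase 2 by −2.92. PFKFB3 had 7.48, 6.98 and 7.24 in H epi cells, against 10.90, 11.07 and 10.55 in H cells. Among enzymes of the main chain, LDHA, lactate dehydrogenase, fell to 14.88 ± 0.07 in H epi cells, against 15.70 ± 0.04 in H cells, and GAPDH had 16.30 ± 0.01 in H epi cells and 16.38 ± 0.05 in H cells (adjusted p = 0.406), at the top of the signal range, since the highest value of an array was 16.3 to 16.4. PFKM, the muscle phosphofructokinase, rose by 1.17. The study chose its listed genes by comparing H tax with N tax arrays of this series. They are not taken as independent evidence of a direction. Of the 27 of them tested here, 26 were lower and 1 was higher. The higher one was IL24, a cytokine, with 6.0, 5.77 and 6.06 in H epi cells, against 3.59, 3.60 and 3.85 in H cells.

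**Figure D3:**
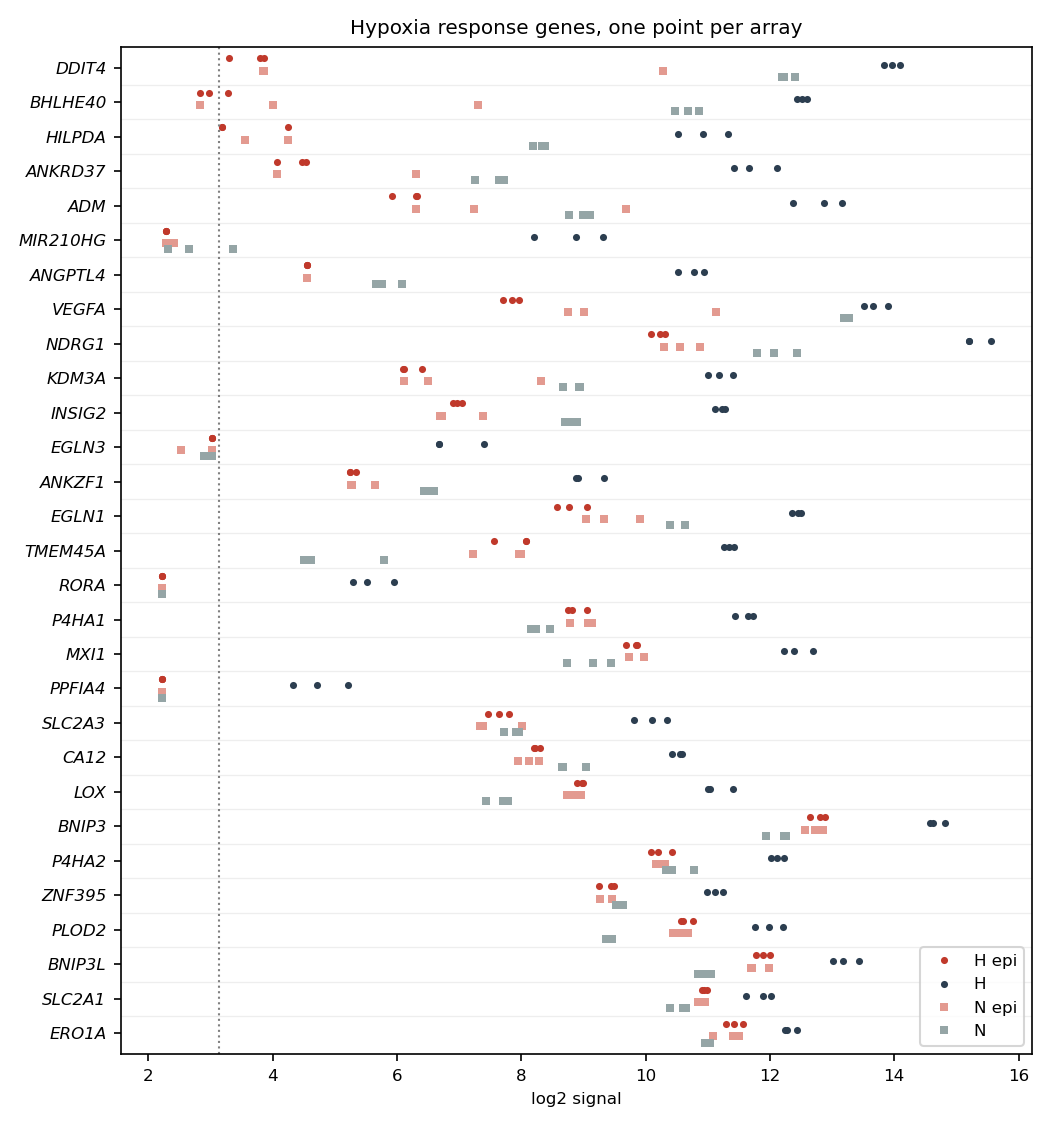
Log2 signal on each array for the 29 tested hypoxia response genes, ordered by change, with H epi and H as circles, N epi and N as squares, and a dotted line at the presence threshold of 3.14. In all 29 the H epi points lie below the H points, and TMEM45A, for example, averages 7.90 in H epi and 7.73 in N epi.

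Whether the drug acted differently at low oxygen was tested as the difference between its effect at 1% oxygen (H epi minus H) and its effect in normal atmosphere (N epi minus N), which share no arrays. N epi array 2 stood apart, correlating at 0.9893 with N epi array 1 and at 0.9795 with N arrays 1 and 2, where N epi array 1 correlated with those N arrays at 0.9597. The main results are given with and without it. Of 24213 probe sets 2454 differed (10.1%), with 324 from arrays 1 and 2 only. Among genes 670 had a higher effect at 1% oxygen (6.01%) and 514 a lower one (4.61%). Of the 29 hypoxia response genes, 26 had a more negative effect at 1% oxygen and 0 a more positive one. Without N epi array 2 it was 29 of 29, against 5.13% of genes, and with arrays 1 and 2 only it was 21 of 29, against 0.912%. In normal atmosphere itself, 25 of them were tested, of which 13 were lower and 8 higher with epirubicin (median −0.68), where 35.9% of all genes were lower and 31.7% higher. For these genes the H mean lay above the N mean in 29 of 29, with a median difference of 2.53. The list was chosen for genes raised by low oxygen, and a higher H mean by itself makes the difference of effects more negative. The direction of the counts above was therefore favoured by the choice of the list. With the drug on both sides the H epi mean minus the N epi mean had a median of 0.00, against −0.02 over all genes. LOX, for example, averaged 8.96 in H epi cells and 8.85 in N epi cells, while H and N cells were at 11.16 and 7.64.

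TMEM45A, a transmembrane protein, moved in opposite directions at the 2 oxygen levels. It had 8.08, 7.56 and 8.07 in H epi cells, against 11.43, 11.34 and 11.26 in H cells, a change of −3.44. In normal atmosphere it had 7.96, 7.22 and 8.0 in N epi cells, against 4.62, 4.50 and 5.79 in N cells, a change of 2.76. The 2 epirubicin conditions lay together between the 2 without drug, and the effects differed by −6.20 (SE 0.46, adjusted p = 5.34e-05), by −6.59 with arrays 1 and 2 only (adjusted p = 0.00591) and by −6.45 without N epi array 2. LOX, P4HA1, MXI1, PLOD2, BNIP3L and BNIP3 likewise rose in normal atmosphere, by 0.57 to 1.20, and fell at 1% oxygen. SPAG4, a nuclear envelope protein, had 6.76, 4.83 and 6.70 in H epi cells, against 11.82, 11.82 and 11.68 in H cells, while N epi and N cells averaged 6.74 and 6.14. Its effects differed by −6.28, or −6.25 without N epi array 2. MIR210HG, the autophagy-linked DEPP1 and the aldolase ALDOC followed with differences of −6.07, −5.90 and −5.43, or −6.09, −5.90 and −5.41 without that array. MIR210HG and DEPP1 were under the threshold on all H epi arrays, so their differences depend on the floor of the signal, and DEPP1 was at least 64.8-fold lower in H epi than in H cells. DDIT4 differed by −4.04 (SE 1.90, adjusted p = 0.21), its N epi arrays being at 3.86, 10.28 and 3.84. Without N epi array 2 it differed by −1.90 (adjusted p = 0.00129).

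In the positive direction TFRC led with a difference of 2.84 (adjusted p = 0.000572), or 2.86 without N epi array 2. It was highest in the epirubicin conditions, at 13.54 ± 0.05 in H epi cells and 13.97 in N epi cells on average, with 12.88 in N cells and 9.62 ± 0.57 in H cells. WDR4, a partner of a tRNA methyltransferase, and GPATCH4, a nucleolar protein, differed by 2.47 and 2.05, and both were lower in H than in N cells. VIPR1, a receptor of vasoactive intestinal peptide, differed by 2.19, and its adjusted p was 0.034, or 0.0576 without N epi array 2. RRS1, a ribosome assembly factor, differed by 2.33, with 6.40, 7.53 and 6.48 in H epi cells, against 6.52, 7.58 and 6.78 in H cells (−0.16, adjusted p = 0.745), while it fell by 2.49 in normal atmosphere. With arrays 1 and 2 only, the differences of VIPR1 and RRS1 did not pass (adjusted p = 0.204 and 0.142).

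**Figure D4:**
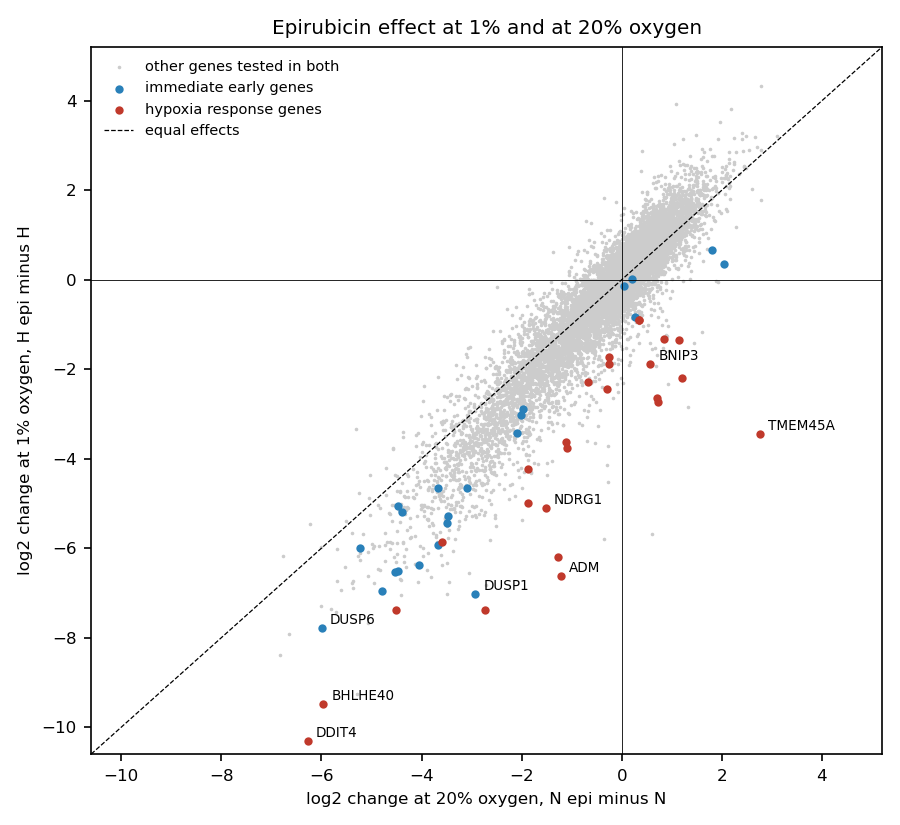
Log2 change of H epi over H (vertical axis) against that of N epi over N (horizontal axis), with a point per gene tested in both, hypoxia response genes in red, immediate early genes in blue and the dashed line marking equal effects. The red points lie below the line, with TMEM45A at −3.44 and 2.76.

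Most immediate early genes, which growth factors raise without new protein, fell. Of 22 tested, 17 were lower, all by 2-fold or more and 14 by 16-fold or more, and 0 were higher. Over all genes 37.1% were lower, 26.4% by 2-fold or more and 3.73% by 16-fold or more. The median was −5.13. MYC, a driver of cell growth, had 5.08, 5.08 and 5.01 in H epi cells, against 11.83, 11.47 and 11.36 in H cells, a change of −6.50 (SE 0.14, adjusted p = 1.34e-06). JUN, a subunit of AP-1, had 5.09, 5.42 and 5.14 in H epi cells, against 11.58, 11.72 and 11.46 in H cells, and IER3, a stress-raised survival gene, had 7.18, 7.17 and 7.92, against 14.60, 14.28 and 14.28 in H cells. The 3 genes changed by −6.50, −6.37 and −6.96 with no overlap of the groups, as for most genes tested. DUSP1, a phosphatase of the stress kinases, changed by −7.02, with H epi arrays that spread over 3.14, 5.24 and 3.91. The other 5 members did not pass: FOS had 4.11, 4.18 and 2.74 in H epi cells, against 4.11, 3.98 and 3.36 in H cells, EGR1 changed by −0.83 (adjusted p = 0.218), NR4A1 by 0.02, FOSB by 0.36 and ATF3 by 0.67 (0.0936). In normal atmosphere 11 of the 22 were lower (median −3.48), against 35.9% of all genes there. For 0 of the 22 did the effect pass limma's test of a difference between the oxygen levels, and for 3 it had an unadjusted p under 0.05. Without N epi array 2 it passed for 2 of them, with a more negative effect at 1% oxygen, against 5.13% of genes. The H epi mean minus the N epi mean had a median of −1.27, or −0.30 without that array.

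Most members of several other signaling lists were lower, where 37.1% of all genes were. Of 19 genes of the EGF receptor family and ERK feedback, 16 were lower and 0 higher (median −2.07), among them SPRED2 at −6.42, SPRY2 at −6.19 and ERRFI1, an inhibitor of the receptor, at −5.57. EGFR itself fell less, to 11.94 ± 0.13 in H epi cells, against 12.88 ± 0.26 in H cells, and ERBB2, ETV4 and EREG did not pass, with changes of 0.06, −0.18 and −0.31. Of 9 genes of the MYC and MAX network 9 were lower, with MNT at −4.40, MXD1 at −3.01 and MXI1 at −2.64. In the TGF-beta, BMP and ID list 12 of 17 were lower and 0 higher (median −2.0). ID1, an inhibitor of basic helix-loop-helix factors, had 5.02, 5.67 and 4.96 in H epi cells, against 11.78, 11.95 and 11.84 in H cells, and BAMBI and TGIF1, which restrain TGF-beta signaling, changed by −4.56 and −5.05, though another probe set of TGIF1 was called higher. SMAD7 was under the threshold on all H epi arrays and at least 4.18-fold lower. Of 19 YAP and TEAD targets 12 were lower and 2 higher (median −0.89): CCN1 and CCN2, secreted matrix proteins, changed by −6.0 and −5.20, while FSTL1 rose by 1.44.

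In the NF-kB and cytokine list, 10 of 19 genes were lower and 1 higher (median −0.71), against 37.1% and 33.6% of all genes. Under centring on present probe sets 9 were lower and 4 higher (median −0.22), against 28.2% and 55.1% of all genes. NFKBIA, the inhibitor of NF-kB that it induces itself, had 4.70, 5.61 and 3.51 in H epi cells, against 10.46, 10.58 and 10.56 in H cells. IL6 fell by 1.72, while CXCL8 had 7.82, 8.12 and 7.62 in H epi cells and 7.41, 7.60 and 7.67 in H cells, which overlapped (adjusted p = 0.134). IL24 was the only riser. Among invasion and adhesion genes 9 of 19 were lower and 4 higher (median −0.06). With that centring 5 were lower and 10 higher (median 0.43), near the 28.2% and 55.1% of all genes. The chemokine receptor CXCR4 fell to 3.10 ± 0.05 in H epi cells, close to the presence threshold, against 5.94 ± 0.58 in H cells, and integrin ITGB4 changed by −2.54. The collagenase MMP1 had 11.16, 11.38 and 11.16 in H epi cells, against 10.46, 10.03 and 9.71 in H cells, a rise of 1.17.

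Among genes of cell death MCL1, FADD and TNFRSF1A fell most. In the BCL2 family 4 of 13 were higher and 4 lower (30.8% each), near the 33.6% and 37.1% of all genes, with a median of 0.04. Under centring on present probe sets 8 were higher and 3 lower, near the shares of all genes there, 55.1% higher and 28.2% lower. MCL1, a short-lived survival protein, had 6.31, 6.80 and 6.65 in H epi cells, against 13.15, 12.74 and 12.81 in H cells, a change of −6.31 (SE 0.17, adjusted p = 2.5e-06). BCL2L1, another survival gene, changed by −1.82. BAX, which permeabilizes mitochondria, had 10.42, 10.01 and 9.86 in H epi cells, against 9.13, 9.10 and 8.79 in H cells, a rise of 1.09, and the survival gene BCL2L2 rose by 1.08. Among death receptors, caspases and their inhibitors 11 of 18 were lower and 2 higher (median −0.90), or 10 and 7 under centring on present probe sets (median −0.41). FADD, the adaptor of death receptors, had 4.44, 4.20 and 3.86 in H epi cells, against 10.97, 11.13 and 10.75 in H cells. TNFRSF1A, a receptor of TNF, had 5.05, 2.23 and 4.60 in H epi cells, against 10.80, 10.62 and 10.83 in H cells, so that 1 array was under the threshold. CASP8 and APAF1, which start the extrinsic and intrinsic caspase cascades, changed by −2.44 and −2.43. BIRC5, survivin, was the largest rise of the list, with 12.94, 12.90 and 12.91 in H epi cells, against 11.45, 11.35 and 11.25 in H cells (1.57).

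MDA-MB-231 cells are known to carry mutant p53, and of 21 genes named as p53 targets 12 were lower and 3 higher (median −0.59), against 37.1% and 33.6% of all genes. The median was −0.35 under quantile normalization and −0.10 under centring on present probe sets, where 9 were lower and 5 higher. Over all genes that centring gave 28.2% lower and 55.1% higher. PPM1D, a phosphatase that ends the damage response, had 2.23, 3.22 and 2.23 in H epi cells, against 7.94, 8.05 and 7.93 in H cells. CDKN1A, the cell cycle inhibitor p21, fell to 7.89 ± 0.16 in H epi cells, against 10.31 ± 0.27 in H cells, and MDM2, the ubiquitin ligase of p53, changed by −1.26. ZMAT3, TIGAR and BAX rose by 1.86, 1.48 and 1.09. In DNA repair and checkpoint genes 13 of 25 were lower and 6 higher, with a median of −0.38, and under centring on present probe sets 8 were lower and 10 higher, with a median of 0.11. WEE1, the kinase that holds cells before mitosis, had 5.18, 4.34 and 5.01 in H epi cells, against 9.83, 10.14 and 9.83 in H cells, and RNF168, a ubiquitin ligase at DNA breaks, changed by −3.91. MRE11, a subunit of a break sensor, and PARP1 rose by 0.97 and 0.79. TOP2A, the main target of anthracyclines in dividing cells, had 11.44, 11.51 and 11.43 in H epi cells, against 12.41, 12.66 and 12.31 in H cells, a change of −1.0, and TOP2B changed by −0.38, or 0.11 under centring on present probe sets. Of 8 genes of anthracycline efflux and reduction 2 were higher and 3 lower: the efflux pumps ABCG2 and ABCC1 rose by 1.10 and 0.43, and the reductases CBR3 and AKR1C3 changed by −1.69 and −1.40. ABCB1, the pump P-glycoprotein, was not tested.

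Among genes of the transcription machinery CDK7 and CCNT1 fell and CCNH rose. Of 27 genes of RNA polymerase II and P-TEFb, 10 were higher (37.0%) and 11 lower (40.7%), near the 33.6% and 37.1% of all genes. Under centring on present probe sets 15 were higher and 9 lower, near the 55.1% and 28.2% of all genes there. CCNT1, the cyclin of P-TEFb, had 5.16, 4.81 and 4.95 in H epi cells, against 9.27, 9.24 and 9.19 in H cells, and HEXIM1 and MEPCE, which hold P-TEFb inactive, changed by −3.67 and −3.73. CDK7 fell to 7.32 ± 0.59 in H epi cells, against 11.25 ± 0.16 in H cells, whereas its cyclin, CCNH, had 11.51, 11.37 and 11.48 in H epi cells, against 9.41, 9.40 and 9.26 in H cells, a rise of 2.10. The polymerase subunits POLR2C and POLR2I rose by 1.31 and 1.30, and the catalytic subunit POLR2A had 10.02 ± 0.10 in H epi cells and 10.20 ± 0.04 in H cells (adjusted p = 0.114). Of 24 splicing regulators 12 were lower and 5 higher, with the kinases CLK1 and CLK4 at −4.57 and −3.64 and RBM39 at −3.06. The median of the splicing list, −0.23, was 0.26 under centring on present probe sets, where 7 were lower and 12 higher.

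Most zinc finger genes fell. Of 347 tested genes whose symbol starts with ZNF and a number, 12 of them antisense transcripts of such genes, 229 were lower (66%) and 24 higher (6.92%), against 37.1% and 33.6% of all genes, with a median of −1.26. Under quantile normalization 199 were lower and 65 higher (median −0.86), against 34.2% and 42.0% of all genes. Under centring on present probe sets 191 were lower and 76 higher (median −0.77), against 28.2% and 55.1%. Of the 347, 49 were under the threshold on all H epi arrays, and with such genes at their bounds the median was −1.18. ZNF217, a transcriptional regulator amplified in some breast cancers, fell to 2.85 ± 0.53 in H epi cells, against 8.72 ± 0.03 in H cells, and ZNF264 to 2.86 ± 0.19, against 8.72 ± 0.04 in H cells. The largest rise was that of ZNF674-AS1 (2.75). In normal atmosphere 237 of 344 were lower and 21 higher with epirubicin (median −1.30), against 35.9% and 31.7% of all genes there. The effects differed between the oxygen levels for 13 of the 347 in the positive and for 7 in the negative direction, shares below the 6.01% and 4.61% of all genes. Without N epi array 2 these counts were 22 and 9, against 5.15% and 5.13% of all genes, and with arrays 1 and 2 only 1 and 1, against 0.352% and 0.912%.

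Ribosomal protein, respiratory chain and histone genes fell rarely. Of 30 cytosolic ribosomal protein genes 10 were higher and 0 lower, against 33.6% and 37.1% of all genes, so the share higher was near that of all genes. With arrays 1 and 2 only, 4 were higher and 0 lower, against 25.8% and 33.0%. The median was 0.16, or 0.65 under centring on present probe sets, close to the shift of all probe sets. Of 35 respiratory chain genes 27 were higher and 1 lower (median 0.43), against 33.6% of all genes higher. With arrays 1 and 2 only, 16 were higher, against 25.8%. Under quantile normalization 17 were higher and 2 lower (median 0.23), against 42.0% and 34.2% of all genes. Under centring on present probe sets 34 were higher and 0 lower (median 0.92), against 55.1% and 28.2%, so the excess depends on the scaling. NDUFS1, the large subunit of complex I, had 10.77, 10.62 and 10.81 in H epi cells, against 9.46, 9.26 and 9.21 in H cells, and SDHA, of complex II, was the member that fell, by 0.38, or rose by 0.11 under centring on present probe sets. Of 13 histone genes with signal 9 were higher and 2 lower, against 33.6% and 37.1% of all genes. Their median was 0.87, or 0.44 with H4C8, which was under the threshold on all H arrays, at its bound. H1-2, a linker histone, had 9.98, 9.42 and 9.88 in H epi cells, against 8.60, 7.96 and 8.36 in H cells, and H2BC12 rose by 1.17. H2AX, the variant phosphorylated at DNA breaks, fell to 11.51 ± 0.32 in H epi cells, against 12.68 ± 0.24 in H cells, although another of its probe sets was called higher.

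**Figure D5:**
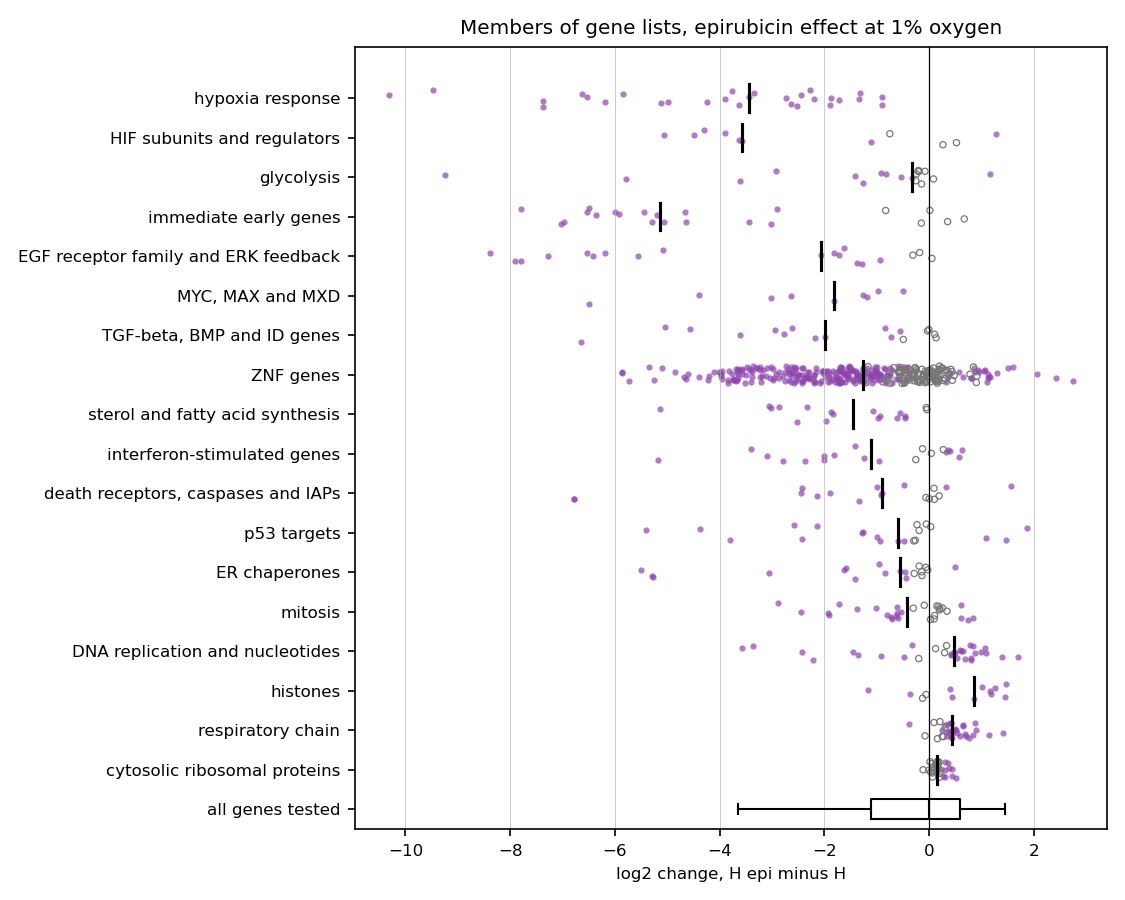
Log2 change of H epi over H for the members of 18 gene lists, filled where the adjusted p is under 0.05 and open where it is not, with a bar at each median, beside a box of all 11157 genes tested (quartiles and median, whiskers from percentile 5 to percentile 95). Immediate early genes have the lowest median, −5.13. Under centring on present probe sets, which moves the median of all probe sets by 0.49, the medians of glycolysis and mitosis genes turn positive, at 0.17 and 0.08. Under quantile normalization they are −0.40 and −0.45.

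Most DNA replication genes were higher by title, but not with arrays 1 and 2 only. The median of mitosis genes turned positive under centring on present probe sets. Of 32 replication and nucleotide genes 19 were higher and 9 lower (median 0.48), against 33.6% and 37.1% of all genes. With arrays 1 and 2 only, 11 were higher and 7 lower (median 0.41), against 25.8% and 33.0%. RPA2, which coats single-stranded DNA, had 11.51, 11.33 and 11.55 in H epi cells, against 9.65, 9.92 and 9.71 in H cells, and the helicase subunit MCM5 rose by 1.39. CCNE2 and CDT1, which license and start replication, changed by −3.57 and −3.36. Of 30 mitosis genes 15 were lower and 4 higher (median −0.42). Under quantile normalization 17 were lower and 4 higher (median −0.45), against 34.2% and 42.0% of all genes. Under centring on present probe sets 7 were lower and 14 higher (median 0.08), against 28.2% and 55.1%. TTK, a spindle checkpoint kinase, had 7.39, 7.33 and 7.55 in H epi cells, against 10.22, 10.45 and 10.28 in H cells, and CENPF changed by −2.44, while CDC20 rose by 0.84. For 8 of the 30 the effect was more positive at 1% oxygen than in normal atmosphere, and for 0 more negative, against 6.01% and 4.61% of all genes. Without N epi array 2 it was 5 of the 30, against 5.15%, and with arrays 1 and 2 only 0 of the 30, against 0.352%.

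Sterol and fatty acid synthesis genes fell with few exceptions. Of 18 tested 16 were lower and 0 higher (median −1.45), against 37.1% and 33.6% of all genes. SQLE, squalene epoxidase, had 4.98, 3.36 and 4.87 in H epi cells, against 9.39, 9.51 and 9.75 in H cells, HMGCS1 changed by −3.05 and INSIG1 by −3.02. SREBF2, the factor that drives the pathway, had 9.07 ± 0.32 in H epi cells and 9.11 ± 0.06 in H cells (adjusted p = 0.848). Of 20 interferon-stimulated genes 11 were lower and 5 higher (median −1.10). IRF9, a subunit of the interferon-activated complex ISGF3, had 4.48, 3.73 and 4.11 in H epi cells, against 9.39, 9.20 and 9.25 in H cells, and IFIT2 changed by −3.09, whereas IFI27 rose by 0.63.

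Among stress genes DNAJB1, HERPUD1, VLDLR, XBP1 and TRIB3 fell by more than 5 log2 units. In the integrated stress response 7 of 20 genes were higher and 6 lower (median 0.39), near the 33.6% and 37.1% of all genes. Under centring on present probe sets 11 were higher and 6 lower, where 55.1% of all genes were higher and 28.2% lower. With arrays 1 and 2 only, 2 were higher and 5 lower, against 25.8% and 33.0%. The lower ones included VLDLR, a lipoprotein receptor (−5.32), TRIB3, a pseudokinase, with 6.51, 5.75 and 5.84 in H epi cells, against 11.71, 10.69 and 11.10 in H cells, and DDIT3, the factor CHOP (−2.10). The higher ones included amino acid genes, PHGDH at 0.89 and PSAT1 at 0.87, and the factor ATF5 at 1.70. ASNS did not pass, with arrays that overlapped, from 11 to 11.93 in H epi cells and from 10.28 to 12.08 in H cells. Of 19 genes of endoplasmic reticulum chaperones and sensors 12 were lower and 1 higher (median −0.56), or 8 and 5 under centring on present probe sets (median −0.07). XBP1, a transcription factor of the unfolded protein response, had 5.18, 4.73 and 5.34 in H epi cells, against 10.55, 10.10 and 10.48 in H cells, HERPUD1 changed by −5.50 and the chaperone HSPA5 by −1.59. Of 11 heat shock genes 6 were higher and 2 lower, or 9 and 2 under that centring: DNAJB1 changed by −5.95, while HSF1, the factor that drives the response, rose by 1.29 and HSPA4 by 1.02. Among metallothioneins and NRF2 targets 6 of 18 were lower and 1 higher (median 0.03), where 37.1% of all genes were lower, and under centring on present probe sets 5 were lower and 11 higher (median 0.52). The list held GCLC, of glutathione synthesis, at −4.19, KEAP1, the inhibitor of NRF2, at −3.86, and MT2A at 15.56 ± 0.09 in H epi cells and 15.50 ± 0.12 in H cells. Of 8 noncoding transcripts 3 were higher and 3 lower, with DANCR rising to 13.61 ± 0.15 in H epi cells, against 11.46 ± 0.11 in H cells.

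Epirubicin was also set directly against paclitaxel at the same oxygen level. The doses differ, 10 µM of epirubicin and 50 µM of paclitaxel, both over 16 hours. Of 24011 probe sets 17056 passed (71.0%), and among 11073 genes 4195 were lower (37.9%) and 3852 higher (34.8%) in H epi than in H tax cells. With arrays 1 and 2 only, 13988 of 23560 probe sets passed (59.4%). Of the probe sets that passed, 49.9% were higher in H epi cells, or 67.6% under centring on present probe sets. This comparison shares the H epi arrays with the one against H. DDIT4 fell most here too, with 3.80, 3.30 and 3.86 in H epi cells, against 14.34, 14.20 and 14.17 in H tax cells (−10.58), and BHLHE40 and PFKFB4 changed by −9.80 and −9.15. DUSP1 followed with 3.14, 5.24 and 3.91 in H epi cells, against 12.75, 12.15 and 12.01 in H tax cells (−8.21), and DUSP5 with −8.0. Of 27 hypoxia response genes 25 were lower and 1 higher (median −3.02), of 22 immediate early genes 22 were lower (median −5.85), and of 20 integrated stress response genes 17 were lower and 1 higher (median −2.63). TMEM45A had 8.08, 7.56 and 8.07 in H epi cells, against 11.26, 11.05 and 10.70 in H tax cells.

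Higher with epirubicin than with paclitaxel was UNG, the uracil glycosylase of base excision repair, with 11.65, 11.41 and 11.13 in H epi cells, against 6.66, 7.40 and 7.12 in H tax cells (4.34, SE 0.23, adjusted p = 1.8e-05). The noncoding FOXP4-AS1 was under the threshold on all H tax arrays, with 7.78, 6.42 and 6.92 in H epi cells, and was at least 14.9-fold higher. TMEM19, the phosphodiesterase PDE1C and TLCD4 were higher by 3.93, 3.92 and 3.90. For each of these genes the H mean lay between the drugs. It was 9.63 for UNG, 4.58 for FOXP4-AS1, 8.84 for TMEM19, 5.47 for PDE1C and 7.27 for TLCD4. TLCD4 averaged 7.88 in H epi cells and 3.99 in H tax cells, so most of its difference was a lower signal with paclitaxel. In the replication list 23 of 32 were higher and 3 lower (median 1.48), and in the respiratory chain list 32 of 35 were higher (median 0.61). Over all genes 34.8% were higher and 37.9% lower. Centring on present probe sets moved the median of all probe sets in this comparison from 0.03 to 0.52.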

How the data were processed

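The authors deposited GC-RMA signals on the log2 scale for 54675 probe sets. GC-RMA corrects background by probe composition and sets the arrays to each other, so the amount of mRNA per cell is not recorded. Genes were named from the platform annotation, which gives 1 symbol to 41091 of the 54613 probe sets that are not controls, several to 1801 and none here to 11721. Probe sets over a log2 signal of 3.14 on at least 2 arrays of a compared condition were tested with limma 3.58.1 in R 4.3.3 with data.table, version 1.17.8, 1 fit per comparison by title, with Benjamini-Hochberg adjustment over all tested probe sets and a threshold of 0.05. The test was tested on simulated data. A gene is its tested probe set with the highest mean over the 6 arrays. A condition under 3.14 on all its arrays gives a bound against that value. Named genes were the 12 largest rises and falls (5 each for the other comparisons) without overlap between arrays and of the same sign with arrays 1 and 2, the study's listed genes, and in each list the largest changes and members that did not pass or went against the others. Members and lists were chosen with earlier results of these data known. Alternatives were arrays 1 and 2 only, grouping by source name, other fits, filters and scalings, a replicate block and leaving out arrays. Centring on present probe sets and leaving out N epi array 2 were chosen after seeing the data. One result on other control probe sets of the array is not reported here.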

Additional observations from a re-analysis of the deposited data

Results flagged for a closer look

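The epirubicin effect differed between 1% oxygen and normal atmosphere for 2454 probe sets by limma's test of the difference. The largest positive differences, as log2 effect in H minus log2 effect in N, were 2.84 for TFRC, 2.47 for WDR4, 2.33 for RRS1, 2.19 for VIPR1 and 2.05 for GPATCH4. The largest negative ones were −6.28 for SPAG4, −6.20 for TMEM45A, −6.07 for MIR210HG, −5.90 for DEPP1 and −5.43 for ALDOC.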

How the results depend on the processing

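With the arrays numbered 3 grouped by source name, 0 probe sets passed in each of the 3 comparisons, while 2203 had an unadjusted p under 0.05 for H epi against H, 106 for the difference of effects and 284 for H epi against H tax. The count for the difference of effects, 2454, was 324 with arrays 1 and 2 only, 1458 without a presence filter and 1420 to 2505 when 1 array was left out, with 1420 without N replicate 1, 1475 without N replicate 2 and 1513 without H replicate 1. For H epi against H, the other alternatives stayed within 1.5 times the main count, from 13562 with arrays 1 and 2 only upward. Under centring on present probe sets, the median change turned to 0.17 for glycolysis and to 0.11 for DNA repair and checkpoint genes. Under quantile normalization these medians were −0.40 and −0.02. The cause was not tested. Replicate numbers gave no pairing of H epi and H arrays, since same-numbered arrays deviated together with correlations of −0.004, 0.05 and 0.0246, and a replicate block gave 15709 calls for H epi against H, 2232 for the difference of effects and 16207 for H epi against H tax. Of 1024 alternatives over 64 genes, which are the largest rises and falls, the hypoxia response list and the study's listed genes, source names aside, 1023 kept direction and side of the threshold, and IL24 in H epi against H changed by 2.29 with an adjusted p of 0.0857 when the arrays 1 and 2 of all conditions were fitted together. The number of arrays and, for genes near the presence threshold, the background limit the precision.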
